A study of Homo sapiens with 12 samples.

Results

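The response of ALDH1- breast cancer cells to a DOT1L inhibitor was described from 6 of the 12 RNA sequencing libraries of the study. All 12 come from MDA-MB-468, a human triple-negative breast cancer line, grown in DMEM with fetal bovine serum. Cells received either the DOT1L inhibitor EPZ5676 (pinometostat) at 0.5 µM or its solvent DMSO for 10 days. After that they were sorted by flow cytometry into a population with aldehyde dehydrogenase 1 activity (ALDH1+) and one without (ALDH1-), so that both ALDH1- groups share the line, the culture and the sort and differ in the treatment. The 3 EPZ5676 ALDH1- libraries and the 3 DMSO ALDH1- libraries were chosen by their labels, compared in pairs of the same replicate number, and described over the 16327 genes with enough counts of the 57783 in the table. Total counts of these 6 libraries lay between 24348594 and 29310374. Levels are in CPM, that is per 1000000 counts after scaling of the libraries, and 3 counts correspond to between 0.102 and 0.122 CPM. A gene is called higher or lower where its Benjamini-Hochberg adjusted p over all genes tested was below 0.05 in edgeR's quasi-likelihood test.

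DOT1L is the methyltransferase of lysine 79 of histone H3, a residue on the face of the nucleosome core. It acts with AF9 and AF10 family proteins and is recruited to transcribed genes near the elongation machinery, and its mark lies over the start and body of transcribed genes. The enzyme is best known from leukaemias with rearranged KMT2A, in which HOXA genes and MEIS1 depend on it. ALDH1 activity, chiefly that of ALDH1A1 and ALDH1A3, is used in breast cancer to enrich cells with stem cell traits. The ALDH1- gate holds the cells sorted as lacking that activity, and their stem cell traits were not tested. EPZ5676 blocks the enzyme and does not cut its gene, so DOT1L mRNA does not show whether the drug acted, and H3K79 methylation was not analysed here.

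The labels were checked first. EGFR, whose gene is amplified in MDA-MB-468, stood at 7850 ± 749 CPM in DMSO ALDH1- cells (SD, n = 3), whereas RB1 and SMAD4, which the line has lost, were at 1.29 and 0.513 CPM. Within the ALDH1- groups no 2 libraries were alike within counting error, with chi-square values per degree of freedom between 3.74 and 16.25. In DMSO, ALDH1A1 stood at 25.3 ± 2.94 CPM in ALDH1- and 33.1 ± 5.21 CPM in ALDH1+ cells (log2 difference, ALDH1+ minus ALDH1-, 0.39, SE 0.09, adjusted p = 0.025), so the transcript was lower but present in the ALDH1- gate. ALDH1A3 differed by 0.26 (SE 0.07, adjusted p = 0.042). The sort followed the treatment, so a change within cells and a movement of cells between the gates cannot be told apart, and in bulk RNA fewer cells of a type and less RNA per cell cannot be told apart either.

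EPZ5676 changed the level of 5260 of the 16327 genes in ALDH1- cells (32.2%). Of these, 2837 were higher (17.4%) and 2423 lower (14.8%). The rises were larger than the falls. The median log2 fold change was 0.71 among called higher genes and -0.34 among called lower genes, against -0.02 over all genes tested. At least 2-fold changes were found for 1016 called genes upward (6.22%) and 159 downward (0.974%), and at least 4-fold changes for 328 and 26. Genes called higher took 12.4% of CPM in DMSO and 17.3% in EPZ5676 cells. The first principal component of the 6 libraries held 67.2% of the variance. It placed the DMSO libraries at -29.7, -35.2 and -42.1 and the EPZ5676 libraries at 40, 39.8 and 27.3, so the treatments did not overlap on it.

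**Figure D1:**
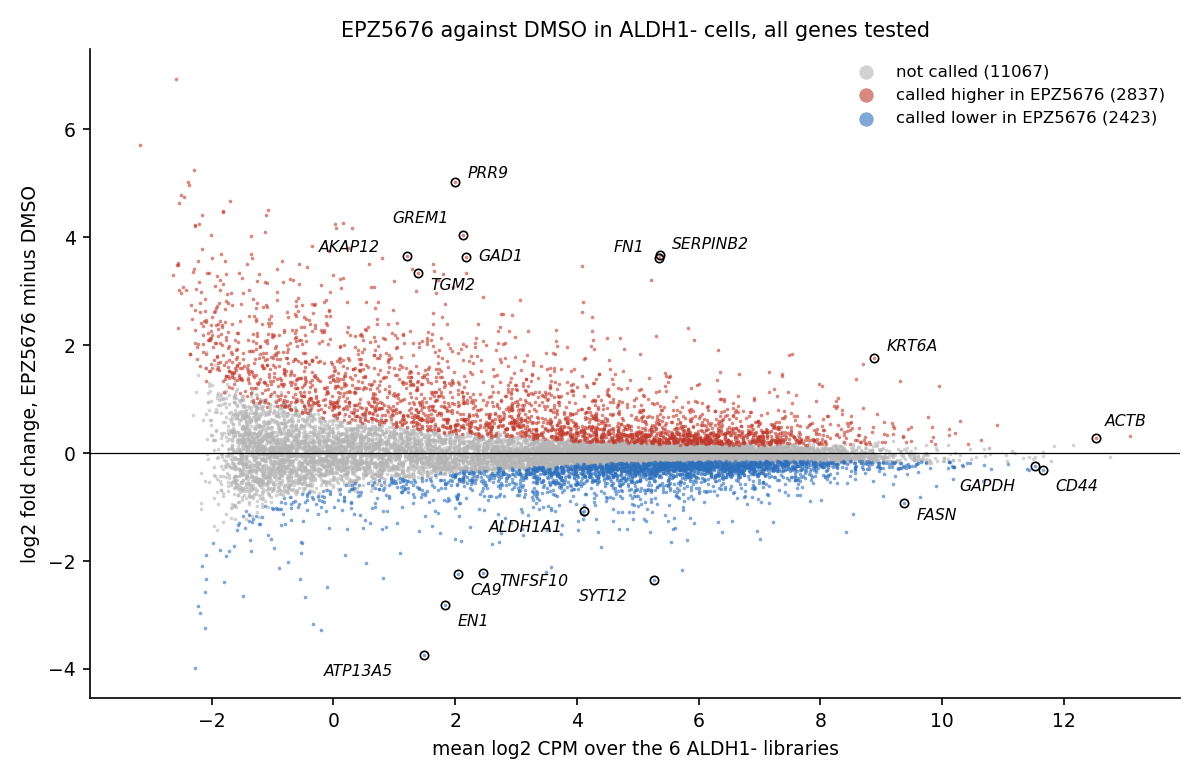
Log2 fold change of EPZ5676 against DMSO in ALDH1- cells (vertical axis) against the mean log2 CPM over the 6 libraries (horizontal axis), 1 point per gene. Of 16327 genes, 2837 were called higher (red) and 2423 lower (blue), and the large rises lie mostly on the left, among genes with low levels; circled genes are named in the text.

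Replicate pairs were compared for direction. Among all 16327 genes tested, 9605 had the same direction in 3 of 3 pairs. Of the called higher genes, 2808 of 2837 were higher in EPZ5676 in 3 of 3 pairs, and of the called lower genes 2407 of 2423 were lower in 3 of 3. Median log2 differences of the called higher genes were 0.67, 0.73 and 0.65 in pairs 1, 2 and 3, and those of the called lower genes -0.35, -0.35 and -0.34. Called genes were chosen by a test on these same pairs, which favours genes whose pairs agree. Their agreement and their pair medians are therefore not a separate check of reproducibility. All 3 EPZ5676 libraries lay above all 3 DMSO libraries in 3213 genes (19.7%) and below them in 3168 genes (19.4%). The number of lower calls leans on the pairing. Without the replicate number in the fit, 1476 genes were called lower and 2219 higher.

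Rises and falls came from genes of different levels. In the quintile of tested genes with the lowest mean level (median 0.554 CPM) 658 genes were called higher and 111 lower, and 548 of the rises were at least 2-fold. In the highest quintile (median 140 CPM) 455 were higher and 695 lower, but 27 rises and 8 falls reached 2-fold. A gene entered the test with enough counts in 3 libraries, so a gene nearly silent in DMSO could enter through its EPZ5676 libraries, and a small change is only detectable in a well-counted gene. By gene type, 2506 of 12992 protein coding genes were higher and 2186 lower, and 109 of 672 long intergenic noncoding RNAs (lincRNAs) were higher and 58 lower.

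**Figure D2:**
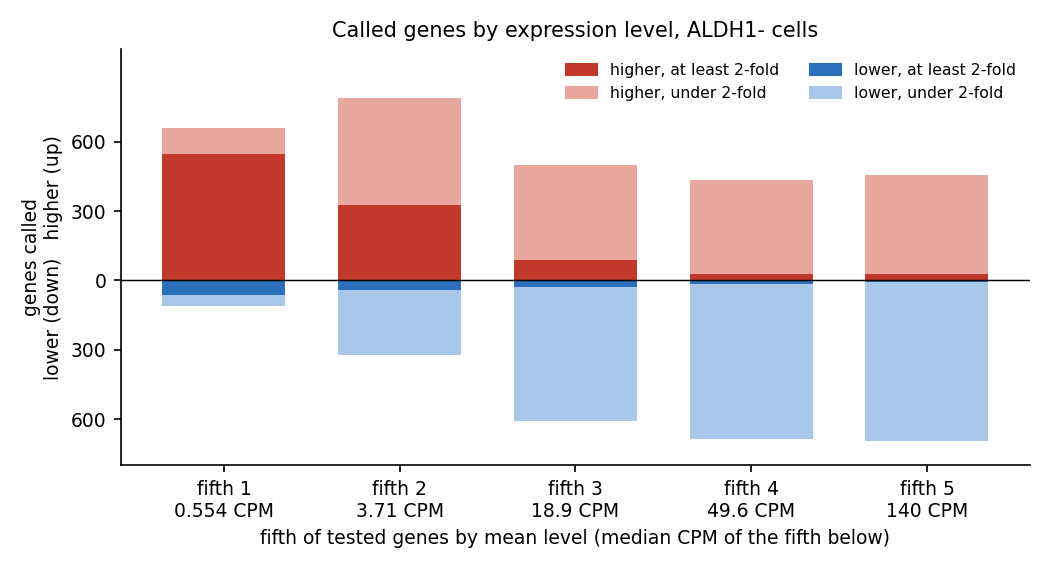
Number of genes called higher (bars up) and lower (bars down) in EPZ5676 ALDH1- cells in each quintile of the 16327 tested genes by mean level, with dark shading for changes of at least 2-fold. Rises of at least 2-fold drop from 548 in the lowest quintile to 27 in the highest, while lower calls grow from 111 to 695.

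Gene span was a further feature. Protein coding genes were split into quintiles by the length from start to end of the gene in the GENCODE annotation used for names, from a median of 5.74 kb to one of 158 kb. The longest quintile had 653 of 2599 genes higher (25.1%) and 510 lower (19.6%). The shortest quintile had 491 higher (18.9%) and 371 lower (14.3%), and the middle quintile 450 (17.3%) and 425 (16.4%). Median log2 fold changes lay between -0.03 and -0.01 in all 5 quintiles. The longest quintile thus held more calls of both directions. Its median level was 32.5 CPM, against 20.9 CPM in the shortest quintile and 35.0 CPM in the middle quintile.

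The 12 largest rises were taken among called genes at a mean log2 CPM of 1 or more whose groups did not overlap. They were of 3.33 to 5.02 on the log2 scale, in genes of varied roles. PRR9 (ENSG00000203783.4), from the epidermal differentiation gene cluster, was at 0.44, 0.986 and 0.653 CPM in DMSO replicates 1, 2 and 3 and at 19.5, 22.9 and 24.5 CPM in EPZ5676 (log2 fold change 5.02, SE 0.25, adjusted p = 8.4e-10). GREM1 (ENSG00000166923.6), a secreted antagonist of bone morphogenetic proteins (BMPs), was at 0.916, 0.986 and 1.27 CPM and rose to 17.7, 18.6 and 15.5 CPM (4.04, SE 0.21). Both genes were near silent in every DMSO library and well above it in every EPZ5676 library. FN1 (ENSG00000115414.14), which encodes the matrix protein fibronectin, had the smallest p of these genes. Its DMSO libraries were alike at 11.7, 11.6 and 11.7 CPM and its EPZ5676 libraries stood at 133, 176 and 123 CPM (3.61, SE 0.11, adjusted p = 7.3e-12). SERPINB2 (ENSG00000197632.4), the plasminogen activator inhibitor PAI-2, went from 8.47, 15.7 and 11.4 to 189, 185 and 90.5 CPM (3.67, SE 0.29), with replicate 3 the lowest of the treated libraries. GAD1, the enzyme that makes the transmitter GABA, rose by 3.64 (SE 0.13), from 1.47, 1.22 and 1.08 to 15.9, 17.3 and 13.4 CPM. The serine protease TMPRSS11E rose by 3.46, from 4.66, 4.86 and 5.91 to 63.9, 55.3 and 50.7 CPM. The other 6 were the kinase anchoring protein AKAP12 (3.66), SPOCD1 (3.51), the long noncoding RNA DIRC3 (3.41), the ubiquitin ligase MARCHF4 (3.37), the starch-digesting enzyme MGAM (3.34) and the tissue transglutaminase TGM2 (3.33).

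ATP13A5 (ENSG00000187527.6), a P5-type ATPase, had the largest fall among genes chosen by the same rule. It was at 11.2, 8.33 and 10.4 CPM in DMSO and fell to 1.06, 0.456 and 0.753 CPM (log2 fold change -3.74, SE 0.17, adjusted p = 3e-10). The homeobox gene EN1 (ENSG00000163064.6), a transcription factor of basal-like breast cancer, fell from 8.36, 9.49 and 10.5 to 0.897, 1.68 and 1.39 CPM (-2.81, SE 0.16). SYT12, a synaptotagmin, fell from 75.5, 90.1 and 96.4 to 17.2, 14.7 and 19.7 CPM (-2.35, SE 0.11). In each of these 3 genes the groups shared no range, as the rule that chose them requires. CA9, the carbonic anhydrase induced by hypoxia, fell by 2.25 (SE 0.21), and TNFSF10, the death ligand TRAIL, fell by 2.23 (SE 0.18), from 12.7, 12.1 and 10.2 to 2.69, 2.07 and 2.81 CPM. Others among the 12 largest falls were ELAPOR1 (-2.21), C9orf152 (-2.11), IGSF23 (-1.86), the aldo-keto reductase AKR1B10 (-1.74), OBP2B (-1.69) and the ganglioside synthase ST8SIA1 (-1.65).

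Some genes went from almost no reads to clear expression. In 23 genes with a symbol every DMSO ALDH1- library had at most 3 counts and every EPZ5676 ALDH1- library at least 10. CMKLR2, a receptor of the adipokine chemerin, had 2, 1 and 3 counts in DMSO and 40, 43 and 51 in EPZ5676. MUSK, the receptor kinase of the neuromuscular junction, had 3, 1 and 2 counts and then 35, 55 and 38. RNASE7, an antimicrobial ribonuclease of skin, had 2, 2 and 3 counts and then 25, 39 and 20. S1PR1, a receptor of sphingosine 1-phosphate, had 0, 2 and 1 counts and then 21, 34 and 14. Also in this set were PPP2R2C, PLPPR5, TRHDE and P3H3. The reverse was seen for 2 genes, LINC02185 with 10, 13 and 10 counts and then 1, 3 and 1, and RHOH with 11, 11 and 10 counts and then 2, 2 and 0.

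Among the called genes with the very highest CPM in each direction the changes were small. ACTB, which encodes beta-actin, rose from 5030, 5400 and 5650 to 6500, 6590 and 6430 CPM (log2 fold change 0.28, SE 0.07, adjusted p = 0.004). The membrane-binding annexin ANXA2 rose by 0.53 and the actin-binding TMSB4X by 0.59, and KRT7, LMNA, CALM2, PLEC and CAP1 rose by 0.17 to 0.45. CD44, the hyaluronan receptor used as a stem cell marker, fell from 3760, 3550 and 3450 to 3190, 2850 and 2650 CPM (-0.31, SE 0.07). GAPDH, EIF4G2, KRT19, ENO1, EEF2 and YBX1 fell by 0.18 to 0.31. The groups did not overlap in any of these genes, as the rule that chose them requires.

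**Figure D3:**
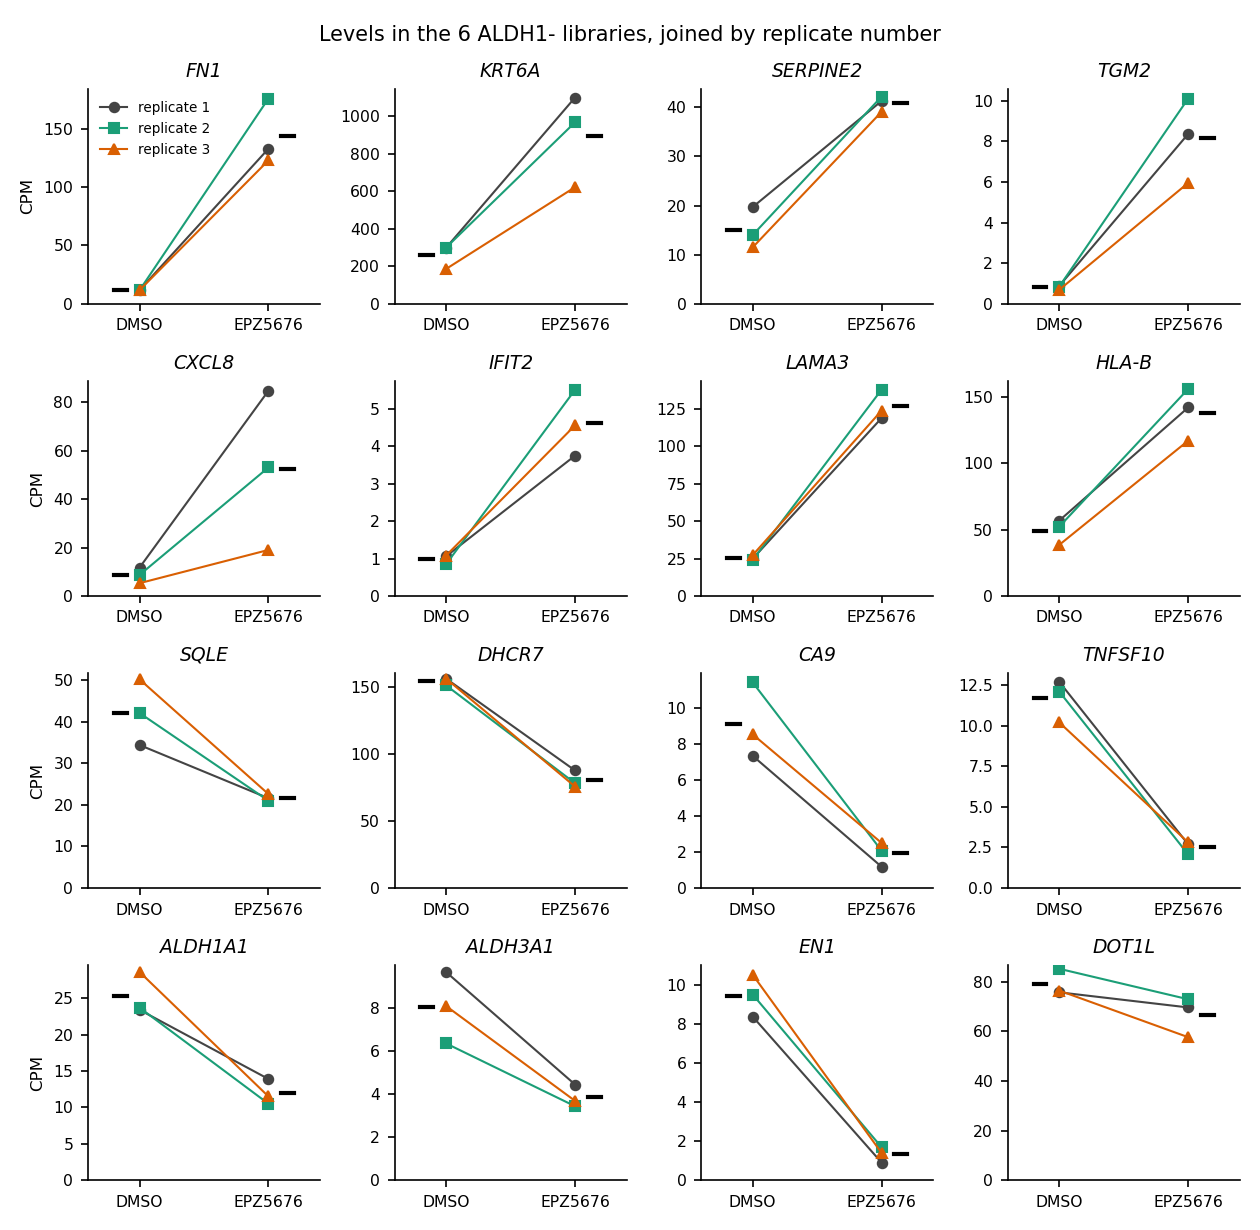
CPM of 16 genes in the 6 ALDH1- libraries (vertical axes, linear, from 0), with DMSO and EPZ5676 libraries of the same replicate number joined and short bars at the group means. In each panel the 3 EPZ5676 points lie on 1 side of the 3 DMSO points. Replicate 3 is the lowest treated library for FN1, KRT6A, SERPINE2, TGM2, CXCL8, HLA-B, DHCR7 and DOT1L.

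Groups of genes were then described by lists of pathway members and markers. For each list the called members in each direction and the median log2 fold change are given, to be read against 17.4% higher, 14.8% lower and a median of -0.02 among all genes. Members too low to be tested were in part silent in every library. Lists with many low-level members hold only those that some group expressed, so their counts are descriptions. The lists and their members were also chosen with earlier results of these data known. Their shares beside those of all genes are therefore not a test of the pathways. Close copies such as KRT6A and KRT6B, HLA genes, S100A7, OBP2B and AKR1C1 with AKR1C2 share sequence, and overlapping genes share positions. How such reads were counted is not given in the sources used here, so their values are uncertain. Of 198 named genes that were called, 170 kept their direction and call in all 17 alternatives. The other 28 lost the call in at least 1 alternative, with the same direction. Without the pairing the calls of AURKB, CCL22, FOS, ID1, TNF and TYMS were lost, and in this or other alternatives those of ACTB, ALDH1B1, CANX, CENPE, DOT1L, EEF2, EGFR, ENO1, GAPDH, KRT7, KRT19, LINC02185, LMNA, MEIS1, MEN1, MLLT3, NPC2, PLEC, RTF1, S100A4, YAP1 and YBX1.

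**Figure D4:**
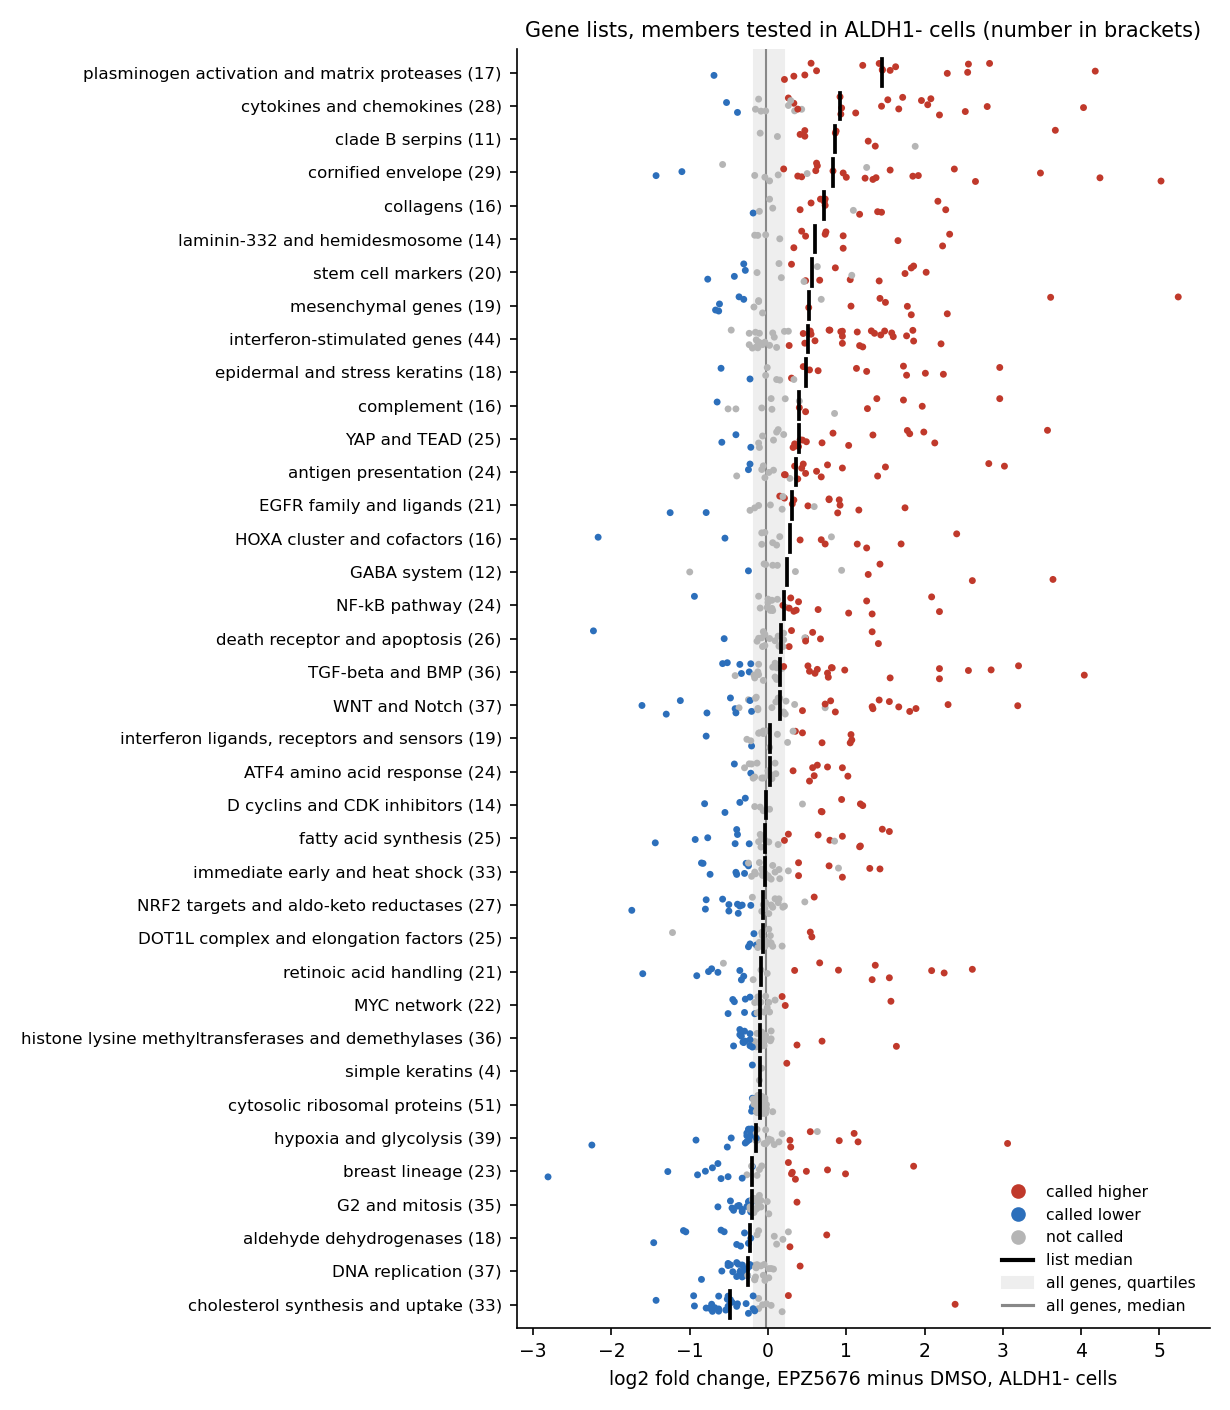
Log2 fold change of each tested member (points) of 38 gene lists in EPZ5676 against DMSO ALDH1- cells, with list medians (black bars) beside the median and quartiles of all 16327 genes (line and grey band, -0.18 to 0.2). Medians run from -0.48 for cholesterol synthesis and uptake to 1.46 for plasminogen activation and matrix proteases.

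DOT1L and its partners changed little. DOT1L (ENSG00000104885.13) was at 75.8, 85.3 and 76.5 CPM in DMSO and 69.7, 73 and 57.7 CPM in EPZ5676 (log2 fold change -0.25, SE 0.07, adjusted p = 0.014). The groups did not overlap, but by a narrow gap, and the call was lost without the pairing (adjusted p = 0.079). Of 25 tested genes of the DOT1L complex and the elongation machinery, 2 were higher and 4 lower (median -0.07), and no lower call remained without the pairing. The elongation factor ELL2 rose from 191 ± 11.6 to 283 ± 13.7 CPM (0.56, SE 0.05), and MLLT3, which encodes the DOT1L partner AF9, rose by 0.54 (SE 0.16). RTF1, a subunit of the PAF1 complex, fell by 0.23, and the menin gene MEN1 fell by 0.18, a call lost in 13 of 17 alternatives. Among 36 methyltransferases and demethylases of histone lysines, 3 were higher and 13 lower, with 8 lower without the pairing and 6 without replicate 2. The H3K27 methyltransferase EZH2 fell by 0.31, the demethylase KDM1A by 0.32 and the H3K9 methyltransferase EHMT2 by 0.34, whereas the repressor PRDM1 rose by 1.64 (SE 0.13) with overlapping groups, at 8.83, 5.03 and 3.95 CPM in DMSO and 30.3, 18.4 and 8.36 CPM in EPZ5676.

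HOX genes, which set position along the body axis, moved upward where they moved. Of 16 HOXA genes and cofactors 7 were higher and 2 lower (median 0.28). HOXA13 went from 0.733, 1.05 and 0.806 to 4.49, 4.49 and 4.76 CPM (log2 fold change 2.41, SE 0.22, adjusted p = 4.8e-07). HOXA10 went from 5.42, 4.96 and 5.03 to 12.4, 12.1 and 12.5 CPM (1.26, SE 0.10), and HOXA11 rose by 1.14. In both HOXA10 and HOXA13 every treated library exceeded every control library with little spread. The cofactors split, since MEIS2 rose by 0.68 and PBX3 by 0.73 while MEIS1 fell by 0.55 (SE 0.20, adjusted p = 0.047) from low levels, a call lost in 12 of 17 alternatives.

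Aldehyde dehydrogenases, the enzyme family of the sorting assay, fell more often than they rose, with 2 of 18 higher and 10 lower (median -0.23). ALDH1A1 (ENSG00000165092.8), which oxidizes retinal to retinoic acid, fell from 23.4, 23.7 and 28.6 to 13.9, 10.5 and 11.5 CPM (log2 fold change -1.08, SE 0.10, adjusted p = 6.3e-07). ALDH3A1, which clears aldehydes from lipid peroxidation, fell from 9.68, 6.36 and 8.1 to 4.45, 3.44 and 3.69 CPM (-1.05, SE 0.16), and its relative ALDH3B2 fell from 138 ± 6.87 to 50.4 ± 3.85 CPM (-1.46, SE 0.09). For these 3 enzymes every EPZ5676 library was below every DMSO library. ALDH3B1 rose by 0.75 and the mitochondrial ALDH1B1 by 0.28. ALDH1A3, with 1370, 1360 and 1380 CPM in DMSO and 1420, 1410 and 1510 CPM in EPZ5676, did not pass the test (0.08, SE 0.07, adjusted p = 0.44), and neither did ALDH1A2 (0.19, SE 0.13, adjusted p = 0.28). Genes that handle retinoic acid went both ways, with 9 of 21 higher and 8 lower. The receptors RXRA and RARA fell by 0.72 and 0.64, the binding protein CRABP2 fell by 0.91 and the retinoid-induced RARRES1 by 1.60, while LRAT, which stores retinol as esters, rose by 0.90 and the retinol dehydrogenase DHRS9 by 2.25.

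Markers of stem-like cells did not share 1 direction. Of 20 tested, 10 were higher and 4 lower. NT5E (CD73) rose from 88.3, 124 and 86.2 to 368, 393 and 293 CPM (log2 fold change 1.83, SE 0.08), with a wide gap between the groups. ALCAM rose by 0.66 and NES by 1.05, whereas PROM1 (CD133) fell from 59.2, 60.3 and 72.9 to 38.3, 36.2 and 38.5 CPM (-0.77, SE 0.07). MYC, the transcription factor of growth programmes, fell from 230, 231 and 210 to 163, 178 and 156 CPM (-0.43, SE 0.05, adjusted p = 1.1e-05).

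Epidermal differentiation genes were called higher more often than lower. The cornified envelope is the crosslinked protein shell of the outer skin, built from small proline-rich proteins, S100 proteins and filaggrin. Of its 29 tested genes, among 48 listed, 20 were higher, 2 lower and 7 not called (median 0.83). SPRR3 rose from 0.215 ± 0.134 to 4.14 ± 0.486 CPM (log2 fold change 4.24, SE 0.27). FLG, which encodes filaggrin, rose from 202, 283 and 233 to 562, 809 and 516 CPM (1.38, SE 0.10). S100A8, a subunit of the antimicrobial calprotectin, rose from 40.2, 49.3 and 34.2 to 169, 161 and 133 CPM (1.92, SE 0.15), and S100A7 and the envelope protein SCEL rose by 1.00 and 1.85. The groups were apart for FLG and S100A8. The 2 lower genes were GRHL3 (-1.43, SE 0.16) and ZNF750 (-1.10, SE 0.13), both transcription factors that drive terminal epidermal differentiation. Among 18 keratins of stratified epithelia 11 were higher, 2 lower and 5 not called. KRT6A, a keratin of wounds and stressed skin, rose from 299, 300 and 186 to 1100, 968 and 622 CPM (1.77, SE 0.08), KRT17 rose by 1.13 and KRT13 by 2.96, and KRT10 fell by 0.60. KRT16, the usual partner of KRT6A, lay at 177 ± 27.4 CPM in DMSO and 177 ± 38.2 CPM in EPZ5676 (-0.01, SE 0.09, adjusted p = 0.97). Clade B serpins, intracellular protease inhibitors that include PAI-2, had 8 of 11 members higher and 3 not called, with SERPINB7 up by 1.28 and the maspin gene SERPINB5 by 0.87.

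Genes of the basement membrane and of its anchorage were called higher more often than lower. Laminin-332 is the trimer that ties basal epithelial cells to their membrane through integrin alpha6beta4. A list of 14 genes held laminin-332, its anchorage, and chains of other laminins such as LAMB1 and LAMA5. Of these 10 were higher and 4 not called (median 0.60). Among the chains of laminin-332, LAMA3 rose from 24.9, 24.1 and 27.3 to 119, 138 and 124 CPM (log2 fold change 2.32, SE 0.09). LAMB3 rose from 253 ± 22 to 421 ± 52.6 CPM (0.73, SE 0.07). The integrin chain ITGB4 rose by 0.96 and COL17A1 by 2.23. Every treated library lay above every control library for LAMA3. Among 16 collagens 11 were higher, 1 lower and 4 not called (median 0.72). The network collagens COL4A1 and COL4A2, which share a promoter region head to head, rose by 2.27 (SE 0.09) and 2.17 (SE 0.09), from 8.91, 8.23 and 8.52 to 44.3, 42.5 and 37 CPM and from 19.9, 18.5 and 17.3 to 84.2, 91.8 and 75.6 CPM.

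Plasminogen activation and matrix proteolysis had the highest list median, 1.46, over 17 tested genes of 25 listed, with 16 higher and 1 lower. A member nearly silent in DMSO could enter the test through its EPZ5676 libraries, so these counts favour rises. The activator PLAU (urokinase) rose from 20.9, 16.8 and 18 to 44.3, 43.1 and 41 CPM (log2 fold change 1.21, SE 0.08). SERPINE2 (protease nexin), which inhibits it, rose from 19.7, 14 and 11.5 to 41.3, 42.2 and 39.1 CPM (1.46, SE 0.10). Activator and inhibitor thus both rose, with no overlap of the groups in either. The gelatinase MMP9 rose from 0.55, 0.17 and 0.154 to 5.79, 6.63 and 3.13 CPM (4.18, SE 0.32), and the protease inhibitor TIMP2 from 61.2 ± 6.57 to 169 ± 21.6 CPM (1.46, SE 0.08). TIMP3, another inhibitor of matrix proteases, fell by 0.69 (SE 0.12).

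The list of mesenchymal genes also holds epithelial genes such as CDH1, claudins and ESRP1, so its counts pool both classes. Of 19 tested genes of this mixed list 9 were higher and 5 lower, 3 lower without DMSO replicate 3. VIM, the intermediate filament of mesenchymal cells, rose from 127, 87 and 92.8 to 272, 308 and 237 CPM (log2 fold change 1.43, SE 0.11), TAGLN rose by 1.83 and the receptor kinase AXL by 1.78. CDH1, which encodes E-cadherin of epithelial junctions, fell from 98.2, 111 and 120 to 66.3, 66.2 and 75.1 CPM (-0.67, SE 0.08). For VIM and CDH1 the groups did not overlap. The metastasis-associated S100A4, listed as mesenchymal, fell by 0.37. Markers of other cell types were read beside these genes. Of 8 fibroblast markers 2 were tested and both rose, with a summed level of 12.9 to 15.9 CPM in DMSO and 21.5 to 25.7 CPM in EPZ5676, while DCN and LUM had 0 counts. Endothelial markers summed to 2.46 to 2.89 and 4.77 to 5.96 CPM, with 1 of 3 tested called.

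Interferon-stimulated genes rose in part. These antiviral genes are switched on when interferon receptors are engaged, through a response element in their promoters. Of 44 tested 25 were higher and 19 not called (median 0.51), with between 21 and 27 higher over the alternatives. DDX60L rose from 17.9, 25.4 and 21.9 to 46.7, 52.5 and 46.5 CPM (log2 fold change 1.17, SE 0.08), IFIT5 from 11.3, 10.5 and 9.75 to 20.4, 19.5 and 20.9 CPM (0.95, SE 0.08) and IFIT2 from 1.06, 0.85 and 1.08 to 3.75, 5.51 and 4.56 CPM (2.21, SE 0.21). In all 3 genes the treated libraries lay above the control libraries. CMPK2, HERC5 and GBP3 rose by 1.60, 1.44 and 0.79. Among 19 ligands, receptors and sensors 6 were higher and 2 lower. The DNA sensor CGAS and its partner STING1 rose by 1.06 and 1.05, and IFNGR1, a chain of the interferon gamma receptor, fell from 132, 147 and 148 to 85.2, 73.2 and 88.1 CPM (-0.79, SE 0.07).

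The promoters of these genes were searched for the core of the interferon response element, GAAANNGAA, on both strands of the 250 bases before the start. It was in 7.1% of the 27305 promoters of the RefSeq table (GRCh38.p14). Of the 35 tested interferon-stimulated genes with a promoter there, 19 held it: 13 of 22 that were called and 6 of 13 that were not. DDX60L and IFIT5, 2 called members with the smallest p among those with a match, are shown with matches in capitals, as DDX60L at chr4:168480493-168480592 on the minus strand and IFIT5 at chr10:89414468-89414567 on the plus strand.
DDX60L: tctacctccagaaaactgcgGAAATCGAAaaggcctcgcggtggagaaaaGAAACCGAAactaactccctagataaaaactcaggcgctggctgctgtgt
IFIT5: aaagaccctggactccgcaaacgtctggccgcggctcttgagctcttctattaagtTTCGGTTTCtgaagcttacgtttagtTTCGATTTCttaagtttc
Both windows hold 2 matches, on the strand of the gene in DDX60L and on the opposite strand in IFIT5. A match describes these letters and is not evidence of binding.

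Antigen presentation genes rose in 15 of 24 and fell in 2 (median 0.36). HLA-B, a class I chain that displays peptides to T cells, rose from 56.8, 52.2 and 38.5 to 142, 156 and 117 CPM (log2 fold change 1.50, SE 0.09), HLA-F rose by 1.40 and HLA-C by 0.68. The peptide transporters TAP1 and TAP2 rose by 0.48 and 0.76. The treated libraries were all above the control libraries for HLA-B. HLA-DPA1, a class II chain, rose from 0.217 ± 0.0297 to 1.55 ± 0.453 CPM, and the chaperone CANX fell by 0.25. Leukocyte markers were read beside these lists. Of 7, 4 were tested and 3 rose, and the markers summed to 10.5 to 13.3 CPM in DMSO and 13.7 to 21.6 CPM in EPZ5676. PTPRC (CD45) went from 0.169 ± 0.0149 to 0.713 ± 0.212 CPM, and CD3E had at most 1 count in any of these libraries. The part of such cells in the immune genes was not tested.

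Genes of the NF-kB pathway, which carries signals of inflammation to the nucleus, were higher in 12 of 24 and lower in 1, with 6 higher without the pairing. TNFAIP3, a target that shuts the pathway off, rose from 44.3, 28.6 and 20.3 to 193, 142 and 70.7 CPM (log2 fold change 2.09, SE 0.10, adjusted p = 4.8e-10). The spread within groups was wide and shared by the pairs, with replicate 1 the highest and replicate 3 the lowest in both. BIRC3 rose by 1.26, TNF by 1.33 with overlapping groups, and BCL3 fell from 41.4, 43.6 and 54.2 to 20.4, 21.5 and 31.6 CPM (-0.94, SE 0.10). The kappa-B core GGGANTTTC, searched in the same way, was in 1.1% of all promoters and in 5 of 21 of the pathway, 2 of them among 11 called. TNFAIP3, the called gene with a match and the smallest p, has it on the opposite strand, in the window chr6:137867147-137867246 (plus strand, GRCh38.p14, RefSeq).
TNFAIP3: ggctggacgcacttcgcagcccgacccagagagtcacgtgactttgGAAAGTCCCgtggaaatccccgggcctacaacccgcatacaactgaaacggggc

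Cytokines, chemokines and their receptors were higher in 18 of 28 tested genes, among 47 listed, and lower in 2 (median 0.92). IL6, a cytokine of the acute phase, rose from 0.806, 0.612 and 0.461 to 6.28, 4.49 and 2.38 CPM (log2 fold change 2.80, SE 0.19). CXCL8, which attracts neutrophils, rose from 11.7, 8.67 and 5.26 to 84.8, 53.1 and 19 CPM (2.52, SE 0.23). The 3 treated values of CXCL8 differed by several-fold among themselves, and the lowest still exceeded the highest control. LIF rose by 0.93, the receptors IL7R, IL6R and IL1R2 by 1.96, 1.45 and 1.12, and the chemokine CCL22 fell by 0.53. Of 16 complement genes 7 were higher and 1 lower. C3, the central component, rose from 10.5, 12.1 and 15.4 to 35.6, 48 and 42.3 CPM (1.73, SE 0.10), with no overlap.

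Cholesterol genes were the list with the lowest median, -0.48, with 25 of 33 lower and 2 higher. Enzymes of the pathway and the LDL receptor are switched on together by SREBF2 when sterol is scarce. The late enzyme DHCR7 fell from 156, 151 and 156 to 87.6, 78.1 and 75.6 CPM (log2 fold change -0.94, SE 0.07, adjusted p = 7.4e-08). SQLE, an early oxygen-dependent step, fell from 34.4, 42.1 and 50.2 to 21.6, 21 and 22.6 CPM (-0.95, SE 0.08). SREBF2 fell from 234, 211 and 214 to 144, 143 and 114 CPM (-0.72, SE 0.06). For these 3 genes no EPZ5676 library reached the DMSO range. The exporter ABCA1 went the other way, from 1.47, 1.26 and 1.27 to 8.85, 6.42 and 5.71 CPM (2.39, SE 0.15), and the lysosomal sterol carrier NPC2 rose by 0.26.

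The sterol regulatory element core TCACNCCAC was in 0.9% of all promoters and in 1 of the 25 cholesterol genes with a promoter in the table, SREBF2 itself. The window is chr22:41832926-41833025 (plus strand, GRCh38.p14, RefSeq), with the match starting 133 bases before the gene.
SREBF2: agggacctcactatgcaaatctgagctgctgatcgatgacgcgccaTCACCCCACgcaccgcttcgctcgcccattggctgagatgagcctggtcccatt

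Fatty acid genes did not follow as a group, with 9 of 25 higher and 7 lower (median -0.04). FASN, the synthase of palmitate, fell from 870, 924 and 962 to 505, 466 and 474 CPM (log2 fold change -0.93, SE 0.09), and the desaturase SCD fell from 209, 201 and 202 to 95.4, 70.6 and 62.5 CPM (-1.44, SE 0.09). Both fell in every pair, and so did SREBF1 (-0.77). FADS1, a desaturase of polyunsaturated fatty acids, rose from 7.77 ± 0.956 to 22.7 ± 1.31 CPM (1.55, SE 0.11), ELOVL4 rose by 1.18 and ACSL4 by 0.79.

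Of 35 genes of mitosis 16 were lower, 1 higher and 18 not called (median -0.21), but 4 were lower without the pairing and 5 without replicate 2. Their mean log2 differences were -0.04, -0.26 and -0.35 in pairs 1, 2 and 3. CDC25B, a phosphatase that starts mitosis, fell from 237, 241 and 261 to 151, 158 and 166 CPM (log2 fold change -0.64, SE 0.07). The transcription factor FOXM1 fell by 0.44, the spindle protein PRC1 by 0.39 and the kinase AURKB by 0.46, while the motor CENPE rose by 0.37 (SE 0.13, adjusted p = 0.039), a call lost in 9 of 17 alternatives. The cell cycle homology region TTTGAA was in 13.6% of all promoters and in 14 of 28 mitosis genes, 10 of 15 called and 4 of 13 not called. PRC1, the called gene with a match and the smallest p, holds it 20 bases before its start in chr15:90994536-90994635 (minus strand, GRCh38.p14, RefSeq).
PRC1: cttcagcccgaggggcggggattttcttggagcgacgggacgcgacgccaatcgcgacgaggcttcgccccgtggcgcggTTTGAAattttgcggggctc

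DNA replication genes fell in 19 of 37 and rose in 1 (median -0.26), with 7 lower without the pairing and between 7 and 27 over the alternatives. The DNA ligase LIG1 fell from 90.6, 102 and 114 to 55, 62.8 and 88.3 CPM (log2 fold change -0.59, SE 0.09), and TYMS, which makes thymidylate, fell by 0.40 with overlapping groups. Mean differences of the list were -0.31, -0.36 and -0.06 in pairs 1, 2 and 3. Cyclin E1 (CCNE1) rose by 0.41. Among 14 cyclins, kinases and inhibitors of the G1 phase 5 were higher and 4 lower. CDKN1A, which encodes the inhibitor p21, rose from 47.7, 37.1 and 39.1 to 81.5, 80.6 and 75.4 CPM (0.94, SE 0.08), the kinase CDK6 rose by 1.21 and the cyclin CCND1 by 0.68. CDKN1B, which encodes the inhibitor p27, fell by 0.36. For CDKN1A the groups did not overlap. Ribosomal protein genes moved little, with 3 of 51 lower and 48 not called (median -0.10), 0 lower without the pairing and 19 lower without replicate 3.

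**Figure D5:**
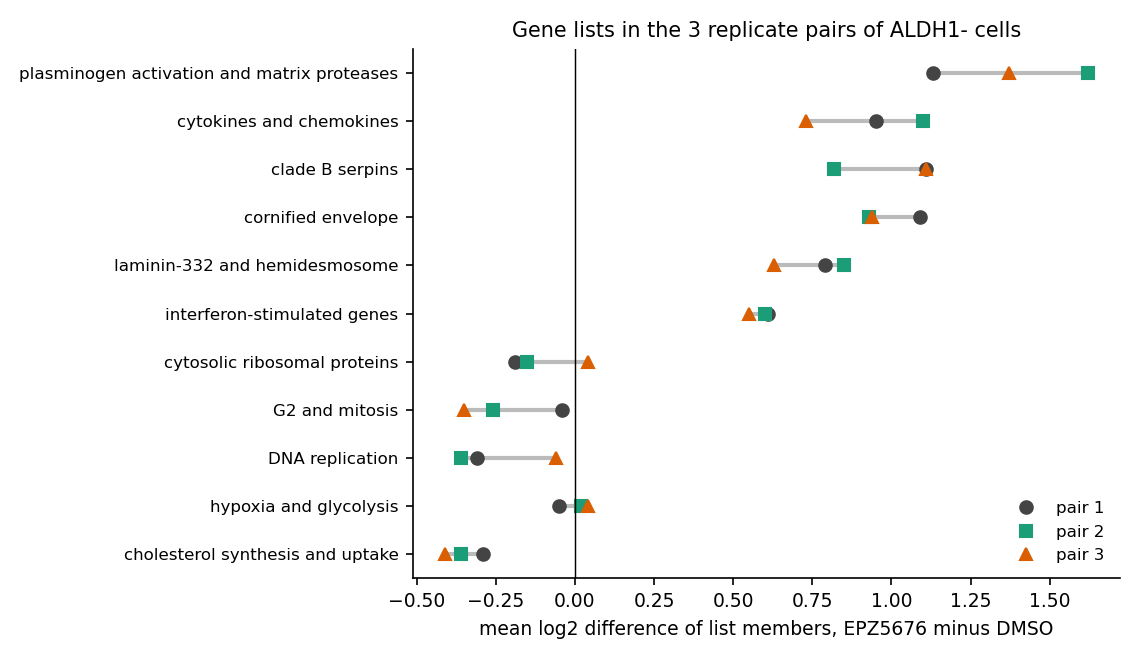
Mean log2 difference of the members of 11 gene lists, EPZ5676 minus DMSO library of the same replicate number, in the 3 pairs of ALDH1- cells (points). The lists that rose are above 0 in every pair, while G2 and mitosis runs from -0.35 to -0.04 and DNA replication from -0.36 to -0.06.

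Genes of MYC, hypoxia and redox metabolism were counted next. Of 22 genes of the MYC network 7 were lower and 3 higher, with 4 lower without the pairing and 2 without replicate 2. MXD1 fell by 0.51 and MYCL rose by 1.57, from 1.13 ± 0.238 to 3.38 ± 0.873 CPM. Of 39 hypoxia and glycolysis genes 17 were lower and 7 higher, with 10 lower and 5 higher without the pairing, 6 lower and 8 higher without replicate 1, and 6 lower and 6 higher without replicate 2. Without replicate 3, 15 were lower and 7 higher. The number of lower calls in this list thus depended on the pairing and on replicates 1 and 2. The median was -0.15 although the mean was 0.02 and 0.04 in pairs 2 and 3. EPAS1, which encodes the hypoxia factor HIF-2alpha, fell from 193, 201 and 195 to 103, 104 and 104 CPM (log2 fold change -0.92, SE 0.09), whereas the glucose carrier SLC2A3 rose by 3.06 and the vasodilator peptide ADM by 1.15. A list of NRF2, the transcription factor of the oxidant response, with its targets and aldo-keto reductases had 11 of 27 genes lower and 1 higher. PGD, which makes NADPH in the pentose phosphate pathway, fell by 0.58 (SE 0.06), and the cystine carrier SLC7A11 rose by 0.59. The amino acid response driven by ATF4 had 8 of 24 genes higher and 2 lower, with 4 higher without the pairing.

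Immediate early genes, which answer to serum and stress within minutes, and heat shock genes were lower in 8 of 33 and higher in 6, with 1 lower and 2 higher without the pairing. FOS, a subunit of the AP-1 transcription factor, stood at 218, 116 and 73.3 CPM in DMSO and at 136, 65 and 45 CPM in EPZ5676 (log2 fold change -0.74, SE 0.09, adjusted p = 5.6e-06). Its groups overlapped, but the treated library was the lower one in each pair, and without the pairing its adjusted p was 0.3. FOSL1, a related AP-1 subunit, went from 163, 128 and 101 to 274, 234 and 169 CPM (0.78, SE 0.09), with no overlap, and the chaperone partner BAG3 fell by 0.40.

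Growth factor pathways had more higher than lower calls. Of 36 genes of TGF-beta and BMP signalling 17 were higher and 6 lower, with 3 lower without the pairing. INHBA, the subunit of activin A, rose from 15.4, 11.6 and 10.4 to 150, 126 and 75.3 CPM (log2 fold change 3.20, SE 0.13), and the ligand TGFB1 from 12.4, 15.5 and 13.1 to 37.6, 44.2 and 38.8 CPM (1.56, SE 0.08). The receptor TGFBR2 rose by 0.77 and the BMP antagonist NOG by 2.19, and the BMP targets ID1 and ID3 fell by 0.58 and 0.52. Both ligands thus rose beyond the spread of the libraries, and the groups overlapped for ID1. Of 25 genes of YAP and TEAD 15 were higher, 3 lower and 7 not called. The target F3 (tissue factor) rose from 490, 402 and 324 to 1260, 1050 and 783 CPM (1.34, SE 0.07) and the target ANKRD1 from 17.3, 9.32 and 7.76 to 62.3, 57.8 and 29 CPM (2.13, SE 0.14), while YAP1, TEAD2 and TEAD3 themselves fell by 0.22, 0.59 and 0.41. Of 21 genes of EGFR signalling 12 were higher and 2 lower, with 7 higher without the pairing. The ligand TGFA rose by 0.78, and ERBB2 fell from 65, 66.4 and 63.7 to 34, 40.6 and 38.3 CPM (-0.79, SE 0.08) and the receptor brake LRIG1 by 1.25 (SE 0.10).

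WNT and Notch genes went both ways, with 13 of 37 higher and 9 lower. WNT7A rose from 0.623, 0.646 and 0.614 to 5.91, 6.42 and 4.84 CPM (log2 fold change 3.19, SE 0.19) and the WNT antagonist DKK1 from 126, 82.8 and 81.4 to 365, 361 and 286 CPM (1.81, SE 0.11). The WNT target AXIN2 fell by 1.30 (SE 0.15), WNT6 by 1.61 (SE 0.15) and the receptor NOTCH3 from 502, 570 and 558 to 242, 245 and 265 CPM (-1.12, SE 0.10). Breast lineage factors were lower in 10 of 23 and higher in 8, with 5 higher without the pairing. SPDEF, a factor of luminal cells, fell from 126, 129 and 118 to 60, 48 and 46.6 CPM (-1.28, SE 0.08) and FOXA1, which opens chromatin for hormone receptors, from 45.7, 48.4 and 46.9 to 25.3, 24.1 and 26.5 CPM (-0.90, SE 0.09), and the basal factor FOXC1 rose from 35.7, 41.8 and 41.3 to 67.9, 70.9 and 62.2 CPM (0.76, SE 0.10). EN1, tied to basal-like tumours, fell as given above. Death receptor genes were higher in 8 of 26 and lower in 2. The receptor FAS rose from 1.61, 1.84 and 1.61 to 5.75, 4.28 and 3.57 CPM (1.41, SE 0.16), opposite to the ligand TNFSF10. Of 12 genes of the GABA system 4 were higher and 1 lower. ABAT, which degrades GABA, rose by 1.28 and the receptor GABBR2 by 1.43, beside the synthase GAD1.

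The response of ALDH1- cells was set against that of ALDH1+ cells. Libraries differ between the populations, but the cells were sorted after treatment and libraries of the same number deviated together across them, with correlations of 0.60, 0.16 and 0.53 for EPZ5676 replicates 1, 2 and 3. The overlap of calls is therefore not one of independent experiments. EPZ5676 called 6820 genes in ALDH1+ cells, 22.2% of those tested higher and 19.6% lower. Of the called genes of ALDH1- cells, 4352 were called in the same direction in ALDH1+ cells, which is 82.7% of the ALDH1- calls and 63.8% of the ALDH1+ calls, and 2 were called in opposite directions. The difference between both responses was tested for each gene in the same fit. No gene passed (0.0%), and 1463 had an unadjusted p below 0.05. With DESeq2 25 genes passed, with 1048 below an unadjusted p of 0.05, and with limma-voom 0, with 1421 below it. A gene called in 1 population and not in the other is therefore not shown to differ. ALDH1A1 changed by -1.08 in ALDH1- and -1.50 in ALDH1+ cells (difference 0.42, SE 0.14, adjusted p = 0.43), and FN1 by 3.61 and 3.85 (difference -0.23, SE 0.15, adjusted p = 0.66). Mitosis genes had 16 of 35 lower in ALDH1- cells and 33 of 35 in ALDH1+ cells, with medians of -0.21 and -0.56, and none of them passed the test of the difference.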

How the data were processed

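RNA sequencing measured gene expression in 12 sorted MDA-MB-468 samples, 3 replicates in each of 4 groups, which the labels call biological. Per the labels' protocols, libraries came from total RNA (TRIzol) with a directional kit. Trim Galore, STAR and build hg19 are named in the submitters' processing notes. How reads were assigned to genes, on which strand and with which annotation is not given in the sources used here. Raw counts were deposited in 1 table, whole numbers with no normalization, for 57783 genes.

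Columns were matched to samples by treatment, population and replicate number. Identifiers were matched without version to symbols: 51959 had one and 5824 had none. No coordinates of genes are given, since no hg19 annotation was used. The tests used edgeR 4.0.16 (R 4.3.3): filterByExpr by group (minimum count 10), TMM scaling (factors 0.9746 to 1.021), and 1 quasi-likelihood fit of all 12 libraries with a term per group and the replicate number as a block, with 6 residual degrees of freedom and a common biological coefficient of variation of 6.6%. Benjamini-Hochberg adjustment ran over all 16327 genes. Fold changes are on the log2 scale, with SE from the F statistic.

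The replicate number was kept because same-numbered libraries deviated together: over 13576 genes their correlations were 0.16 to 0.60 in all 18 pairs, against -0.61 to 0.18 between different numbers, and 36 of 36 comparisons matched a library best with its own number. The labels do not say what a number shares. The fit was tested on simulated data. Alternatives were no block, RLE scaling, total counts, no filter, at least 1 CPM in 3 libraries, DESeq2 1.42.0, limma-voom (limma 3.58.1), the 6 ALDH1- libraries alone, and leaving out libraries or replicates. Named genes follow a rule: the largest changes, the highest CPM, genes near 0 counts in 1 group, and in each list the smallest p and the highest uncalled CPM. EGFR, RB1, SMAD4, DCN, LUM and CD3E are label or marker checks. Some genes that the rule allows are not reported here. The members and lists were chosen with earlier results of these data known. Gene spans come from the GENCODE annotation, and 97.1% of tested genes had one. Promoters come from RefSeq.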

Additional observations from a re-analysis of the deposited data

How the results depend on the processing

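The number of genes called higher in ALDH1- cells was 2837 and stayed within 1.5 times of that in all 17 alternatives (1956 to 3074). The 2423 lower calls became 1476 without the replicate block, in which 2219 were higher, and 3695 of the 5260 calls were shared in the same direction. Leaving out libraries or replicates gave 1202 to 2266 lower calls, with 1475 without DMSO ALDH1- replicate 2, 1544 without EPZ5676 ALDH1- replicate 1, 1356 without replicate 1 and 1202 without replicate 2. The other alternatives gave 2005 to 2355. Calls of at least 2-fold numbered 719 to 1215 higher and 110 to 184 lower. The difference between populations had 0 calls, but 180 with no filter on low counts and 25 with DESeq2, and 0 to 17 when libraries or replicates were left out, with 13 without DMSO ALDH1- replicate 2, 2 without EPZ5676 ALDH1- replicate 3, 3 without replicate 2 and 17 without replicate 3. The causes were not tested. KRT16, at -0.01, was at 0.01 with total counts, 0.00 with at least 1 CPM in 3 libraries, 0.01 with the 6 ALDH1- libraries alone, and -0.14 to 0.09 when libraries or replicates were left out. RLE scaling and total counts moved the median of all genes by 0.0 and 0.02. At this depth 3 counts are 0.102 to 0.122 CPM, which limits the lowest genes, and with 3 pairs small changes of well-counted genes depend on the pairing.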
